A study of Homo sapiens with 2 samples.

Results

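The genes described here are the metalloproteinases of the MMP, ADAM and ADAMTS families and their inhibitors, the TIMPs, in Cal-27 cells, an established line from an oral squamous cell carcinoma of the tongue. They were taken by gene symbol from the deposited tables, which gave 66 of the 20263 genes listed: 23 MMP, 20 ADAM, 19 ADAMTS and 4 TIMP genes. RNA was sequenced from 1 culture stably transduced with an shRNA against HIPK2 (vector GV-248-HIPK2-sh) and from 1 culture stably transduced with a scramble shRNA, both grown in regular medium with serum. HIPK2 is a nuclear kinase, and the comparison sets cells given an shRNA against it beside cells given a scramble shRNA. The sources used here do not say whether either culture came from 1 clone. With 1 library in each group, no spread between cultures could be measured, no p-value is given, and each ratio compares these libraries and not the conditions. Values in brackets are 95% counting intervals, which cover counting error only.

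Metalloproteinases are enzymes with a zinc ion in the active site. MMPs cleave matrix proteins, either secreted or held at the cell surface, and are made as inactive precursors. ADAMs sit in the plasma membrane and release the outer parts of growth factors, receptors and adhesion proteins, while the secreted ADAMTS enzymes act mainly on proteoglycans, procollagens and other matrix proteins. TIMPs bind the active enzymes and block them. In squamous carcinomas these families are studied for their part in invasion. The tables measure RNA only, and neither precursor processing nor enzyme activity can be read from them.

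The library labelled HIPK2 shRNA held 26450251 counts and the scramble library 28064923 counts. HIPK2 itself had 218 counts in the library labelled HIPK2 shRNA and 110 in the scramble library, while its deposited TPM (a level per transcript length, scaled to the library) was 0.873 and 1.63. The transcript length implied by its counts and FPKM was 13819 bases and 3443 bases in those libraries. The counts thus go against the label and the TPM goes with it. Whether the labels are exchanged was not tested, and every direction given here would turn if they were. All 11 squamous epithelial markers examined were at 1 CPM or more (counts scaled to the library total, which gives no level per length) in at least 1 library, and summed to 4085 CPM in the library labelled HIPK2 shRNA and 4729 CPM in the scramble library. KRT5 held 2554 and 2766 CPM of these sums, and 2 of the 11 were past 2-fold lower, KRT14 (7.13-fold, 44 and 318 counts) and CDH1 (2.11-fold). Of 8 fibroblast markers 3 reached 1 CPM (COL1A1, COL1A2 and PDGFRB), and their list summed to 22.0 CPM in the library labelled HIPK2 shRNA and 18.7 CPM in the scramble library, and DCN and PDGFRA had 0 counts in both. Among 8 leukocyte markers CD68, CSF1R and CD14 reached 1 CPM, with sums of 32.7 and 36.6 CPM in the same order of libraries, and PTPRC, CD3E, CD79A and MS4A1 had 0 counts in both. Of 5 endothelial markers CDH5 and VWF reached 1 CPM, and PECAM1, KDR and TEK had 0 counts in both libraries. The endothelial list summed to 28.5 CPM in the library labelled HIPK2 shRNA and 56.1 CPM in the scramble library. CDH5 alone held 27.3 and 55.2 CPM of these sums in those libraries. A count of 0 allows up to 0.111 CPM in the library labelled HIPK2 shRNA and 0.109 CPM in the scramble library (3 counts each). In bulk RNA, fewer cells of a type and less RNA per cell cannot be told apart.

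Promoter sequences are shown for the MMP genes on chromosome 11 in whose windows the AP-1 letters were found, because 9 MMP genes lie side by side there and differed from each other in direction. AP-1 factors, the FOS and JUN proteins, are known regulators of several MMP genes. RefSeq promoter windows (GRCh38.p14) matched 39 of the 66 members, with 40 windows in all. MMP1, MMP3, MMP12 and MMP13 were among the members not searched. In the letters TGANTCA, N is any base, so the pattern takes in AP-1 sites but not every match need be one. The letters, which read the same way on both strands, were searched on both strands of the 250 bases before each RefSeq start. They stood in 4 of the 40 windows (10.0%) and in 2308 of 35116 RefSeq promoters of the same length (6.57%). TATAAA, the core letters of a promoter element found near many starts, stood in 7 of the 40 (17.5%) and in 3763 of the 35116 (10.7%). The windows shown run from 150 to 11 bases before the start, 5′ to 3′ on the minus strand, with both motifs in capitals. They lie at chr11:102530758-102530897 for MMP7, chr11:102625343-102625482 for MMP20 and chr11:102780639-102780778 for MMP10.
MMP7: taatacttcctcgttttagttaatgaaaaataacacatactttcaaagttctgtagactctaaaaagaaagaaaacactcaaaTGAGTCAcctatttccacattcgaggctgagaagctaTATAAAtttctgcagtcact
MMP20: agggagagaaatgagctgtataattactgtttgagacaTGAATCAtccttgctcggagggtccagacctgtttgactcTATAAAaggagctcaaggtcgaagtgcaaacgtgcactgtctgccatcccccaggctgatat
MMP10: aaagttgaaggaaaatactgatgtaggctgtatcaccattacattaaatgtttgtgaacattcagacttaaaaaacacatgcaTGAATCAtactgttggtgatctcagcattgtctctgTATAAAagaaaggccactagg
In MMP7 and MMP10 the AP-1 letters begin 67 bases before the start and the TATA letters 30 and 31 bases before it. In MMP20 they begin 112 and 72 bases before the start. Among the other members searched, ADAMTS12 held the AP-1 letters, at 84 bases. The middle base was G in MMP7 (TGAGTCA) and A in MMP10, MMP20 and ADAMTS12 (TGAATCA), and the shares above count every middle base. These matches describe letters and show no binding.

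Of the 66 members, 30 were expressed, meaning 1 CPM or more in at least 1 library, 21 had 0 counts in both libraries, and 15 had counts but stayed under 1 CPM. Among the 30, 5 were at least 2-fold higher in the library labelled HIPK2 shRNA (MMP1, MMP13, MMP2, ADAM11 and TIMP2) and 6 at least 2-fold lower (MMP7, MMP14, ADAM8, ADAMTS1, ADAMTS12 and TIMP4). The rule of size behind these counts is a log2 ratio of (CPM + 1) of at least 1 or at most -1. Over all 11813 expressed genes the same rule called 3.26% higher and 2.87% lower, against 16.7% and 20.0% of the expressed members. In the deposited TPM, with 1 added to each value, the rule called 3 of 26 expressed members higher and 6 lower. Of 10885 genes it called 3.01% higher and 2.54% lower. Low genes pass such a rule more often, so the shares were also read by level. Below a mean of 10 CPM, 6 of 18 members passed 2-fold, against 9.37% of 4600 genes. Between 10 and 100 CPM it was 4 of 10 members, against 4.73% of 5326 genes, and above that 1 of 2, against 2.17% of 1887 genes. The median log2 ratio of the expressed members was 0.36 and that of all expressed genes 0.00. MMP10, MMP11, MMP13, MMP25 and ADAM11 reached 1 CPM only in the library labelled HIPK2 shRNA, where they were higher. They thus entered the shares and the median through their high side. No member reached 1 CPM only in the scramble library. With a pseudocount of 0.1 CPM in place of 1, the higher members numbered 9, and with 5 they numbered 2. Without the 11 expressed members whose exons share bases with another gene, 2 were higher (MMP13 and ADAM11) and 5 lower, a setting added after the data were seen. MMP13 and ADAM11 each reached 1 CPM only in the library labelled HIPK2 shRNA. The overlapping genes of TIMP2 and TIMP4 that the tables list, CEP295NL and SYN2, had at most 2 counts in either library.

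**Figure D1:**
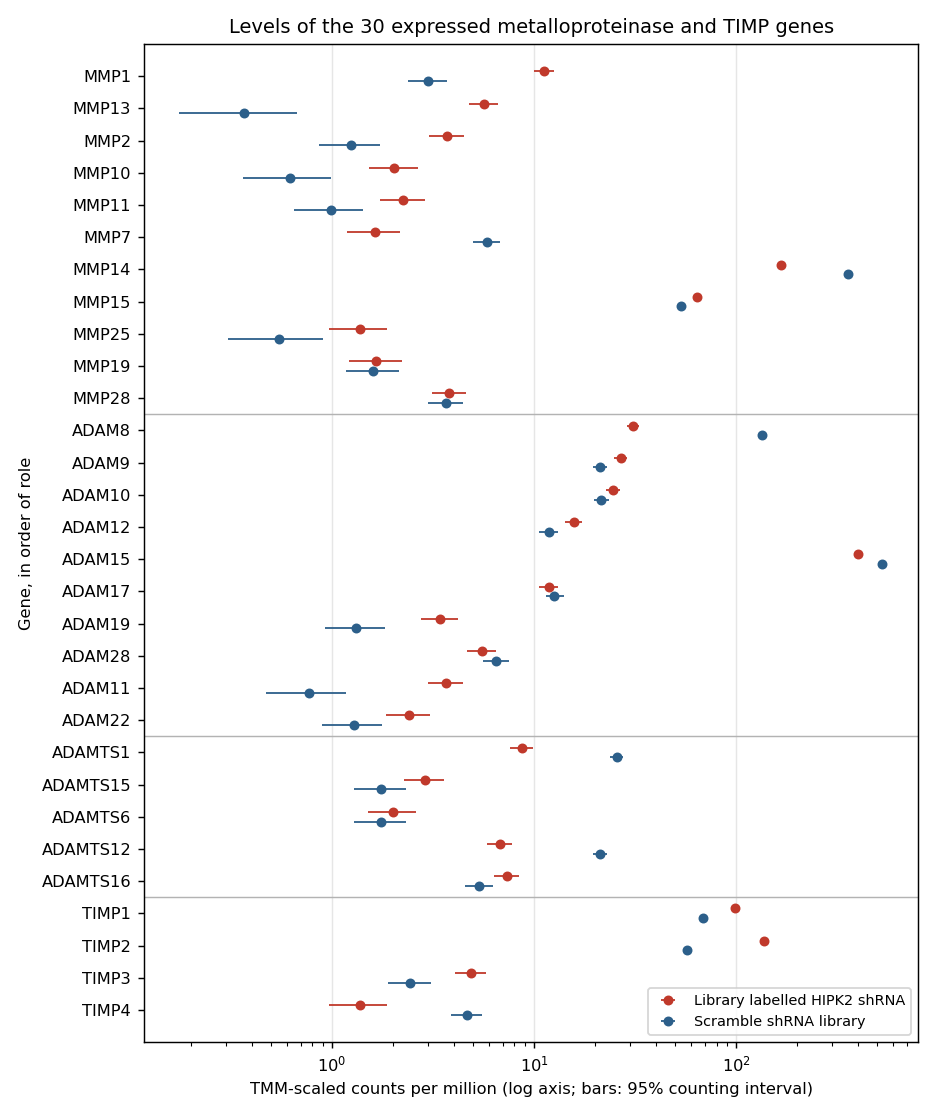
Level of each of the 30 expressed members (vertical axis, in order of role) in TMM-scaled CPM on a log axis, in the library labelled HIPK2 shRNA (red) and the scramble shRNA library (blue), with bars for the 95% counting interval. The intervals lie apart for ADAM8 (30.9 CPM in the library labelled HIPK2 shRNA and 135 CPM in the scramble library) and overlap for MMP28 (3.81 and 3.65 CPM).

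Of the 3 secreted collagenases, which cut intact fibrillar collagen, MMP1 and MMP13 were higher in the HIPK2 shRNA-labelled library. MMP1 (ENSG00000196611, chromosome 11, 102789920 to 102798160) had 303 counts in the library labelled HIPK2 shRNA and 82 in the scramble library, a CPM ratio of 3.75 (2.93 to 4.84) and a TPM ratio of 4.04. MMP13 (ENSG00000137745, chromosome 11, 102942995 to 102955734) had 153 counts and 10 counts in those libraries, or 3.11 and 0.184 TPM, a CPM ratio of 15.5 (8.21 to 33.0). In each of the pair the counting intervals of the libraries lie apart. The MMP1 exons share 7.61% of their bases with a gene on the opposite strand. MMP8, the collagenase best known from neutrophils, had 0 counts in both.

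The gelatinase MMP2 (ENSG00000087245), which digests denatured collagen and basement membrane collagen, had 100 counts in the library labelled HIPK2 shRNA and 34 in the scramble library, a CPM ratio of 2.98. Its levels were 3.70 CPM (3.01 to 4.49) and 1.24 CPM (0.858 to 1.73) in those libraries, and the intervals lie apart. On the log2 scale with the pseudocount its ratio was 1.07 in CPM and 0.76 in TPM, so it passed 2-fold in CPM alone. Without the pseudocount its TPM ratio was 3.18. The MMP2 exons share 3.53% of their bases with a gene on the same strand. MMP9, the other gelatinase and one often measured in carcinomas, had 0 counts in both libraries. Stromelysins have a broad range of matrix substrates. MMP10 had 55 counts in the library labelled HIPK2 shRNA and 17 in the scramble library, a ratio of 3.28 (1.88 to 6.03), and MMP11 had 61 and 27 counts, a ratio of 2.29 (1.43 to 3.75). Both intervals lie above 1, but with the pseudocount their log2 ratios were 0.90 and 0.71 and did not pass the rule. CHCHD10, an opposite-strand neighbour that shares 4.21% of the MMP11 exon bases, had 776 and 1163 counts in those libraries. Its part in the MMP11 count was not tested. MMP3 had 6 and 11 counts in the same libraries and its interval (0.168 to 1.63) includes 1.

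MMP7, or matrilysin, a small MMP made by epithelial cells, had 44 counts in the library labelled HIPK2 shRNA and 160 in the scramble library. That is 3.59-fold lower (2.56 to 5.13) in CPM and 3.36-fold lower in TPM. Its neighbours MMP10, MMP1 and MMP13 were all higher, so the direction differed within the run of genes. This run holds 9 of the 66 members over 435 kb of chromosome 11, all on the minus strand, with no other gene of the tables inside it. From its start the order is MMP7, MMP20, MMP27, MMP8, MMP10, MMP1, MMP3, MMP12 and MMP13. MMP20 (known from tooth enamel), MMP27 and MMP8 had 0 counts in both libraries. MMP12, the macrophage elastase, had 6 counts in the library labelled HIPK2 shRNA and 2 in the scramble library. MMP7 and MMP10, whose promoter windows hold both motifs at nearly the same distances, differed in opposite directions. Their AP-1 letters are not the same, TGAGTCA in MMP7 and TGAATCA in MMP10. Whether the letters bear on these directions was not tested.

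**Figure D2:**
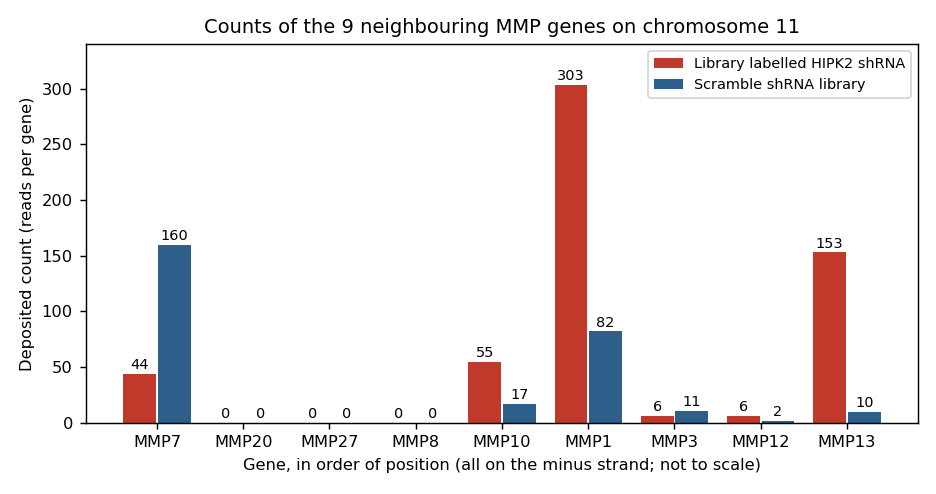
Deposited counts (vertical axis) of the 9 neighbouring MMP genes on chromosome 11 in order of position, in the library labelled HIPK2 shRNA (red, left bar) and the scramble shRNA library (blue, right bar). In the HIPK2 shRNA-labelled library, MMP10, MMP1 and MMP13 are higher and MMP7 is lower, and 3 genes between MMP7 and MMP10 have 0 counts.

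Membrane-anchored MMPs held most of the MMP RNA, and their leading member, MMP14, was lower in the HIPK2 shRNA-labelled library. It is also called MT1-MMP (ENSG00000157227, chromosome 14, 22836557 to 22847761), and cuts collagen at the cell surface and activates the MMP2 precursor. It had 4496 counts (66.9 TPM) in the library labelled HIPK2 shRNA and 9881 counts (136 TPM) in the scramble library, 2.17-fold lower (2.09 to 2.25) in CPM and 2.03-fold lower in TPM. The related MMP15 had 1734 counts in the library labelled HIPK2 shRNA and 1468 in the scramble library, a CPM ratio of 1.20 (1.12 to 1.28). MMP14 made up 58.0% of the summed MMP TPM in the library labelled HIPK2 shRNA and 79.3% in the scramble library, and MMP15 made up 19.6% and 10.3%. MMP25, which is held by a lipid anchor, had 37 and 15 counts, a ratio of 2.50 (1.34 to 4.90), but 35.2% of its exon bases are shared with an antisense gene. MMP16, MMP17 and MMP24 stayed under 1 CPM. In the library labelled HIPK2 shRNA they had 8, 21 and 2 counts, and in the scramble library 8, 23 and 13. For MMP24 that is 6.41-fold lower (1.45 to 58.5), with 21.8% of its exon bases shared with other genes.

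Among the other MMPs, MMP28 (epilysin, known from keratinocytes) had 103 counts in the library labelled HIPK2 shRNA and 100 in the scramble library, and MMP19 had 45 and 44. Their CPM ratios were both 1.04, with intervals of 0.785 to 1.39 and 0.669 to 1.61. A change of up to about these sizes was not detectable at this depth. The MMP19 exons share 17.4% of their bases with a gene on the opposite strand. MMP23B had 15 counts in each library, a value left uncertain by a near-identical pseudogene copy, and MMP21, MMP20, MMP26 and MMP27 had 0. Summed over the family, MMP RNA was 115 TPM in the library labelled HIPK2 shRNA and 171 TPM in the scramble library. Without MMP14 the sum was 48.3 TPM and 35.4 TPM, a sum that leaves out the leading member, which was lower.

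The ADAM family was led by ADAM15 in both libraries. ADAM15 (ENSG00000143537), which carries an integrin-binding disintegrin domain, had 216 TPM in the library labelled HIPK2 shRNA and 264 TPM in the scramble library, and ranked highest of all 66 members in each. Its counts were 10784 and 14438, 1.32-fold lower (1.29 to 1.35). ADAM8 (ENSG00000151651), a sheddase and adhesion protein also known from leukocytes, had 835 counts in the library labelled HIPK2 shRNA and 3707 in the scramble library. It was 4.38-fold lower (4.06 to 4.73) in CPM and 4.09-fold lower in TPM, and was the single expressed member past 4-fold lower by the log2 ratio with the pseudocount. Of the leukocyte markers, CD14 had 88 counts in the library labelled HIPK2 shRNA and 136 in the scramble library, CD68 had 558 and 634, CSF1R had 238 and 231, and the 4 at 0 counts are named above. Their part in the ADAM8 difference was not tested. ADAM8 made up 5.69% of the ADAM TPM in the library labelled HIPK2 shRNA and 17.6% in the scramble library.

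The main sheddases of growth factors and cadherins stayed within 2-fold. ADAM17, which releases TNF and several EGF receptor ligands, had 321 counts in the library labelled HIPK2 shRNA and 347 in the scramble library, a ratio of 0.938 (0.803 to 1.09). Its TPM was 4.08 in each, and 13.6% of its exon bases are shared, among others with IAH1. ADAM10, which cuts Notch receptors and cadherins, had 664 and 591 counts, a ratio of 1.14 (1.02 to 1.27). ADAM9 had 728 counts in the library labelled HIPK2 shRNA and 580 in the scramble library, and ADAM12 had 426 and 325, with ratios of 1.27 (1.14 to 1.42) and 1.33 (1.15 to 1.54). In TPM the ratios of ADAM10, ADAM9 and ADAM12 were 1.49, 1.38 and 1.54. All of these genes lay within 2-fold in both units. ADAM19 stood apart from them, with 93 counts in the library labelled HIPK2 shRNA and 36 in the scramble library, a ratio of 2.62 (1.76 to 3.96). Its log2 ratio with the pseudocount was 0.94. Its opposite-strand neighbour CYFIP2, which shares 0.805% of its exon bases, had 135 and 4 counts in those libraries, and the part of this in the ADAM19 count was not tested.

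Among the ADAMs known to lack protease activity, ADAM11 and ADAM22 were expressed. ADAM11 had 99 counts in the library labelled HIPK2 shRNA and 21 in the scramble library, a ratio of 4.78 (2.96 to 8.06). Its log2 ratio with the pseudocount was 1.40 in CPM and 0.84 in TPM, and its TPM ratio without one was 5.21. ADAM22, known in neurons as a receptor for the secreted protein LGI1, had 65 and 35 counts, a CPM ratio of 1.88 (1.23 to 2.93), but a TPM ratio of 5.59. The transcript length implied by its counts and FPKM was 3404 bases in the library labelled HIPK2 shRNA and 9424 bases in the scramble library. ADAM28 showed the same feature, with an implied length of 3306 bases and 5137 bases in those libraries. Its 149 counts in the library labelled HIPK2 shRNA and 178 in the scramble library give a CPM ratio of 0.849 (0.678 to 1.06), while its TPM ratio was 1.41. The direction of ADAM28 therefore depended on the unit. ADAM17 had a log2 ratio of -0.09 in CPM and 0.00 in TPM. Of all expressed genes, 12.2% differed in sign between CPM and TPM. ADAM2, ADAM7, ADAM18, ADAM20, ADAM30, ADAM32 and ADAM33 had 0 counts in both libraries. In the library labelled HIPK2 shRNA, ADAM21 had 4 counts, ADAM29 had 2 and ADAM23 had 10, and in the scramble library they had 0, 0 and 4.

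**Figure D3:**
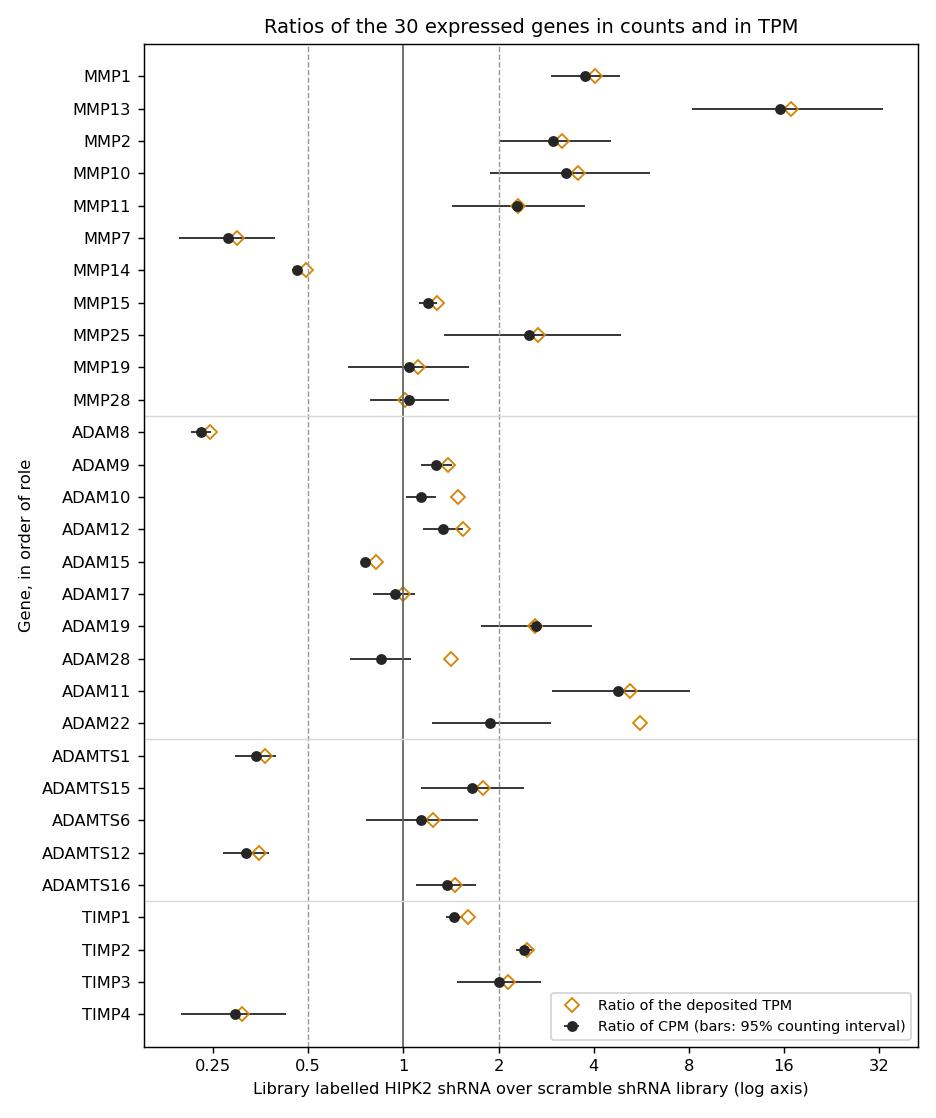
Ratio of the library labelled HIPK2 shRNA over the scramble shRNA library (horizontal, log axis) for the 30 expressed members (vertical axis, in order of role): filled circles give the CPM ratio with its 95% counting interval, open diamonds the ratio of the deposited TPM, and dashed lines mark 2-fold. ADAM22 (1.88 in CPM and 5.59 in TPM) and ADAM28 (0.849 and 1.41) are the members whose symbols lie farthest apart.

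ADAMTS1 and ADAMTS12, the leading ADAMTS genes of the scramble library, were both at least 2-fold lower in the HIPK2 shRNA-labelled library. ADAMTS1, which cuts versican and aggrecan, had 236 counts in the library labelled HIPK2 shRNA and 701 in the scramble library, 2.93-fold lower (2.52 to 3.41), and 2.51 and 6.88 TPM. ADAMTS12, which is known to cut the cartilage protein COMP, had 183 and 583 counts, 3.14-fold lower (2.66 to 3.73), and 7.71 and 22.1 TPM. COMP, ACAN (aggrecan) and VCAN (versican) themselves had 0 counts in both libraries. The remaining expressed ADAMTS genes were at 10 CPM or less and within 2-fold. ADAMTS16 had 198 counts in the library labelled HIPK2 shRNA and 147 in the scramble library, a ratio of 1.37 (1.10 to 1.70). ADAMTS15 had 78 and 48 counts, a ratio of 1.65 (1.14 to 2.41), and ADAMTS6 had 54 and 48, a ratio of 1.14 (0.759 to 1.72).

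In the library labelled HIPK2 shRNA, ADAMTS7 had 16 counts and ADAMTS17 had 12, and in the scramble library both had 0. Set against 3 counts in the scramble library, they were 5.41-fold and 4.06-fold higher, at levels under 1 CPM. This takes the 16 and 12 counts as exact. Their own counting intervals were 0.338 to 0.960 CPM and 0.229 to 0.775 CPM. ADAMTS3 had 14 counts in the library labelled HIPK2 shRNA and 7 in the scramble library, ADAMTS14 had 8 and 10, ADAMTS13 had 3 and 4, and ADAMTS2 had 2 and 0. The procollagen N-proteinases, ADAMTS2, ADAMTS3 and ADAMTS14, were thus all under 1 CPM. ADAMTS4, ADAMTS5, ADAMTS8, ADAMTS9, ADAMTS10, ADAMTS18, ADAMTS19 and ADAMTS20 had 0 counts in both libraries, among them the aggrecanases ADAMTS4 and ADAMTS5.

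All 4 inhibitors were expressed, and 3 of them were higher in the library labelled HIPK2 shRNA. TIMP1 (ENSG00000102265, chromosome X, 47582313 to 47586789) had 2679 counts in the library labelled HIPK2 shRNA and 1877 in the scramble library, a ratio of 1.45 (1.36 to 1.54). TIMP2 (ENSG00000035862, chromosome 17, 78852977 to 78925387), which also takes part in the activation of the MMP2 precursor by MMP14, had 3724 and 1567 counts, a ratio of 2.41 (2.27 to 2.56). MMP2 and TIMP2 were thus both higher while MMP14 was lower. TIMP3, which binds to the matrix and also inhibits ADAM17, had 132 counts in the library labelled HIPK2 shRNA and 67 in the scramble library, or 4.88 CPM and 2.44 CPM, a TPM ratio of 2.15 and a log2 ratio of 0.77 with the pseudocount. TIMP4 went the other way, with 37 counts in the library labelled HIPK2 shRNA and 128 in the scramble library, 3.41-fold lower (2.35 to 5.06). In TPM the directions were the same.

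Per length, summed TIMP RNA was 232 TPM in the library labelled HIPK2 shRNA and 136 TPM in the scramble library, of which TIMP1 made up 74.4% and 79.6%. The ratio of summed TIMP to summed MMP was 2.02 in the library labelled HIPK2 shRNA and 0.794 in the scramble library. By TPM rank among the 66 members, ADAM15, TIMP1, MMP14 and TIMP2 led in that order in the library labelled HIPK2 shRNA, and ADAM15, MMP14, TIMP1 and ADAM8 led in the scramble library. The ADAM sum was 261 TPM in the library labelled HIPK2 shRNA and 346 TPM in the scramble library. Without ADAM15 it was 45.1 TPM and 81.3 TPM, and without both ADAM15 and ADAM8, the leading members that were lower, it was 30.3 TPM and 20.6 TPM. The ADAMTS sum was 14.7 TPM and 31.4 TPM in the same libraries. ADAMTS12 held 7.71 and 22.1 TPM of it, at implied transcript lengths of 1313 and 1344 bases. In CPM the ADAMTS sum was 29.7 and 56.4.

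**Figure D4:**
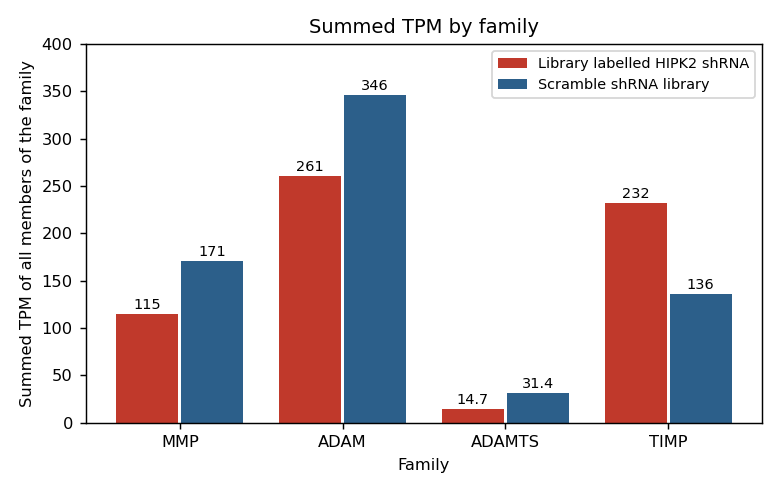
Summed TPM of all members of the 4 families (horizontal axis) in the library labelled HIPK2 shRNA (red, left bar) and the scramble shRNA library (blue, right bar). The TIMP sum is higher in the library labelled HIPK2 shRNA (232 against 136 TPM), and the MMP, ADAM and ADAMTS sums are lower.

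Genes that act with these families were read from lists. Over all 11813 expressed genes, 3.26% passed 2-fold higher and 2.87% lower, the shares that belong beside each list below. Of 11 genes of precursor activation and clearance, 10 were expressed, 1 passed 2-fold higher and 1 lower, with a median log2 ratio of -0.07. LRP1, an endocytic receptor that clears MMPs and TIMPs, had 464 counts in the library labelled HIPK2 shRNA and 54 in the scramble library, a ratio of 8.71 (6.56 to 11.8). PLAUR and PLAU, the urokinase receptor and urokinase, had log2 ratios of -0.66 and -0.47. The convertase FURIN, which activates MMP14 and ADAM precursors, had 6418 counts in the library labelled HIPK2 shRNA and 6193 in the scramble library, a ratio of 1.05 (1.01 to 1.09). In the list of 9 other inhibitors and modulators, SPOCK1 and PAPLN were expressed, and 1 of them was past 2-fold, on the higher side. SPOCK1, a testican, had 64 and 9 counts, a ratio of 7.21 (3.57 to 16.5), and RECK, a membrane-bound inhibitor of MMPs, had 21 and 23 counts and stayed under 1 CPM.

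All 9 partners of ADAM10 and ADAM17 were expressed, and 1 passed 2-fold higher and 1 lower (median 0.17). They are tetraspanins that escort ADAM10, the iRhoms RHBDF1 and RHBDF2 that escort ADAM17, and FRMD8, which binds iRhoms. TSPAN33 had 279 counts in the library labelled HIPK2 shRNA and 105 in the scramble library, a ratio of 2.69 (2.14 to 3.40), and TSPAN10 had 65 and 25. TSPAN5 had 80 and 191 counts in those libraries, 2.36-fold lower (1.80 to 3.10), and TSPAN15 had 1382 and 2463, 1.76-fold lower (1.65 to 1.88). The ADAM10 escorts thus differed from each other in direction, while ADAM10 itself had a ratio of 1.14. Of 10 ADAMTS-like and astacin genes, 4 were expressed, 1 past 2-fold higher and 1 lower. TLL2, of the tolloid enzymes, was 2.88-fold lower (2.15 to 3.90), and ADAMTSL5 had a ratio of 2.79 (1.90 to 4.19). BMP1, which removes the C-terminal propeptides of procollagens, had 1698 counts in the library labelled HIPK2 shRNA and 1833 in the scramble library, a ratio of 0.939, and ADAMTSL4 had 26 and 29, a ratio of 0.909 (0.514 to 1.60).

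Among 29 surface proteins known to be shed by ADAMs or MMPs, 26 were expressed. None passed 2-fold higher and 4 passed 2-fold lower, where 2.87% of all expressed genes did, and the median log2 ratio was -0.19. These 4 were HBEGF and TGFA, both ligands of the EGF receptor, at -1.64 and -1.19, the cadherin CDH1 at -1.07 and the hyaluronan receptor CD44 at -1.03. In TPM the log2 ratios of TGFA, CDH1 and CD44 with the pseudocount were -0.94, -0.80 and -0.97, under 2-fold. Without it they were 2.06-fold, 1.77-fold and 1.96-fold lower in TPM. Of 23 matrix substrates, 15 were expressed, none passed 2-fold higher and 1 passed lower, with a median of 0.10. TNC, THBS1 and HSPG2 had log2 ratios of 0.90, -0.81 and 0.57.

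**Figure D5:**
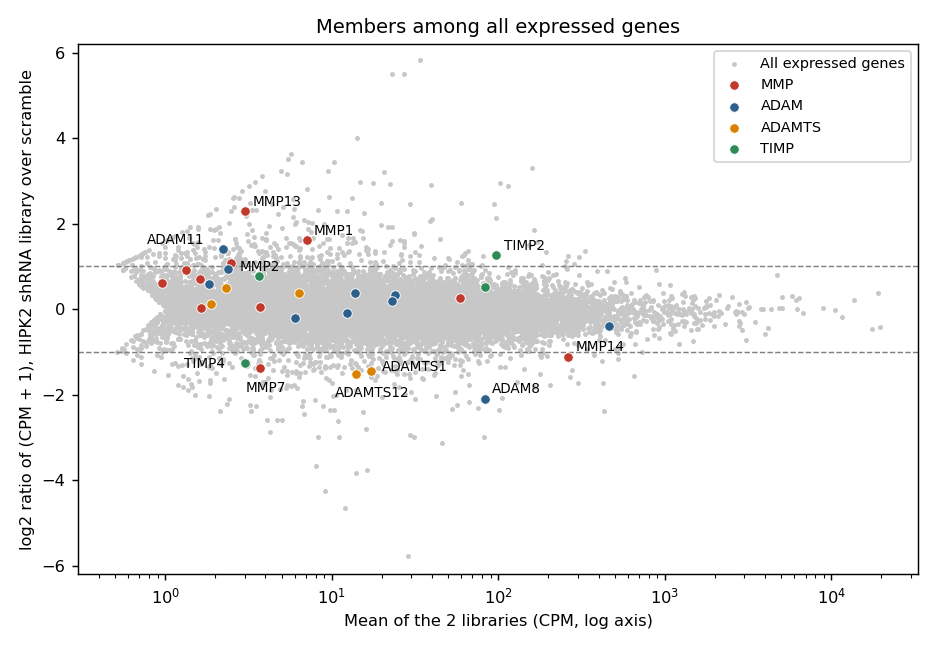
Log2 ratio of (CPM + 1) of the library labelled HIPK2 shRNA over the scramble shRNA library (vertical axis) against the mean CPM of the libraries (horizontal, log axis) for all 11813 expressed genes (grey) and the 30 expressed members (coloured by family), with dashed lines at 2-fold. The 11 named members lie outside the dashed lines, and over all expressed genes 6.13% do.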

How the data were processed

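Counts, TPM and FPKM per gene were given by the authors for 1 library of each group, per the file headers. The deposited counts are whole numbers and were not normalized, and the deposited TPM is scaled to transcript length and library total. Per the submitters' processing notes, FastQC and the aligner TopHat2 2.1.1 were used, and the genome was GRCh38 (hg38). The sources used here name no counting tool, annotation or use of strand, so reads of overlapping genes cannot be assigned. From the deposited FPKM and the count a transcript length was derived for each gene, scaled on genes with 1 GENCODE 29 transcript, of which 98.7% lay within 10% of the annotated length in each library.

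CPM used TMM scaling (edgeR 4.0.16, R 4.3.3), and edgeR ran no test. The log2 ratio is of (CPM + 1), which understates differences in low genes. Genes reaching 1 CPM in either library count as expressed, and those past 2-fold have a log2 ratio of 1 or above, or of -1 or below. Printed ratios carry no pseudocount and have exact Clopper-Pearson intervals at 95%, given the sum of both counts (scipy 1.17.1). Since no molecular identifiers are described, reads may not be independent molecules. 1 count is worth 0.0370 CPM in the library labelled HIPK2 shRNA and 0.0365 CPM in the scramble library. The steps were tested on simulated data, which held counting error only and no spread between cultures. Of 50 genes simulated at 2-fold the rule of size called 16, and of 50 at 3-fold it called 49. Changes were simulated only in genes above a minimum level, which the lowest members do not reach.

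The members, lists and alternatives were chosen with earlier results of these data known. Every expressed member is named, as are up to 4 expressed genes of each list, those farthest from 0 on the log2 scale, except for some genes that are not reported here. FURIN and RECK and the substrates at 0 counts were added after their values were seen. Roles of the members are background knowledge, and protein sequences were not used here.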

Additional observations from a re-analysis of the deposited data

How the results depend on the processing

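The 5 higher members numbered 9 with a pseudocount of 0.1 CPM, 2 with one of 5, 2 with a filter at 10 CPM, 3 in the deposited TPM, 10 at 1.5-fold, 1 at 4-fold and 2 without members sharing exon bases, the last chosen after seeing the data. The 6 lower members numbered 1 at 4-fold and from 4 to 6 in every other setting tried. Total counts, upper-quartile and median-of-ratios scaling left both counts as they were. The median log2 ratio of 0.36 ranged from 0.18 to 0.43, except that it was 0.00 with no filter, where members at 0 counts enter. Of 176 log2 ratios of single members under other settings, 164 kept their direction and their side of 2-fold, 7 came under it, 4 came past it, and ADAM28 changed sign, at 0.34 in TPM. ADAM17, at -0.09 in CPM and 0.00 in TPM, is counted among the 164. Those that came under it were MMP2 and ADAM11 in TPM and MMP2, MMP13, MMP7, ADAM11 and TIMP4 with a pseudocount of 5. Without a pseudocount the TPM ratios of MMP2 and ADAM11 were 3.18 and 5.21. MMP10, MMP11, MMP25 and ADAM19 came past 2-fold with a pseudocount of 0.1. Apart from settings that count fewer genes, the cause was not tested. Leaving out a replicate would empty a group. No paired analysis was possible because there is 1 library per group. Depth limits the low members, whose intervals span several-fold.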

Other observations

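The escort TSPAN14 and the receptor LRP1 also had transcript lengths, implied by count and FPKM, that differed between the libraries. TSPAN14 had an implied length of 3099 bases in the library labelled HIPK2 shRNA and 4938 bases in the scramble library, with a CPM ratio of 1.55 (1.47 to 1.63) and a TPM ratio of 2.64. LRP1 had an implied length of 14238 and 11295 bases in those libraries. ADAM10 had implied lengths of 8945 and 10906 bases in the same libraries, and its TPM ratio was 1.49 where its CPM ratio was 1.14.

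ADAMTS12 had an implied length of 1313 bases in the library labelled HIPK2 shRNA and 1344 bases in the scramble library, while its GENCODE 29 transcripts run from 707 to 8774 bases. For its relative ADAMTS1 the implied lengths were 5193 and 5190 bases, and the longest annotated transcript has 5191 bases.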
